A study of Mus musculus with 2 samples.

Results

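The lysosome is the acidic compartment in which cells break down proteins, glycans, lipids and whole organelles. Its lumen holds cathepsins (proteases) and a large set of other acid hydrolases, with activator proteins that present lipids to them, and its membrane is lined with heavily glycosylated proteins such as LAMP1 and LAMP2. Every cell has lysosomes, and macrophages, which digest what they engulf, are especially rich in several cathepsins. The genes described here are 42 listed lysosomal enzymes and membrane proteins, of which 41 had a probe set carrying their symbol alone, out of 12393 genes named in that way. Arsb, which encodes arylsulfatase B, is not analysed here.

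Expression was measured on Affymetrix mouse arrays in teratomas, the growths with tissues of several germ layers that arise when pluripotent cells are grafted. The EiPS array held RNA from tumours of EiPS cells (the label names the line 1E12 iPS), an induced pluripotent stem cell line whose tumours were regressing in the submitters' words. The B6 ES array held RNA from tumours of embryonic stem (ES) cells of the strain C57BL/6 (B6). Both kinds of cell were placed under the skin of male B6 mice, and both kinds of tumour carry the strain label C57BL/6 (B6), were removed at week 6 and were pooled, 2 tumours to an array. The sources used here give neither the genotype of the lines nor the age of the hosts.

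There was 1 array per group, so no difference below has a replicate check, none was tested, and each compares these 2 pools and not the cell lines in general. Signals are the authors' MAS5 intensity values on a linear scale, and each gene was read from the probe set whose log2 signal, averaged over both arrays, was highest. Differences are on the log2 scale, EiPS pool minus B6 ES pool. All 41 genes lay, on both arrays, above a floor of 25.8, under which 90% of the signals of olfactory, vomeronasal and taste receptors lie; signals below it are set to it, and such a fold is written "at least". In bulk tissue, fewer cells of a type and less RNA per cell cannot be told apart.

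Many lysosomal genes are bound by TFEB, a transcription factor that recognises the CLEAR element, a palindrome built around an E-box. Promoters of 37 of the 42 genes were in the RefSeq table (assembly GRCm38.p6), each reaching from 250 bases before to 50 bases after an annotated transcript start. The letters TCACGTGA, the core of the CLEAR element, were in the promoters of 5 of the 37 genes (13.5%), against 304 of all 27025 genes in the table (1.12%). The shorter E-box CACGTG, which every TCACGTGA contains, was in 14 of the 37 (37.8%), against 2187 of 27025 (8.09%). Both motifs are their own reverse complement, so each search covers both strands. A match is a description of these letters and not a binding site. The windows of the 5 genes are shown because they hold the motif that these genes share outside the rule that chose them. Each runs 5′ to 3′ on the gene's strand, up to 30 bases on either side, with TCACGTGA in capitals. Where Ctsa and Gla hold it more than once, the copy nearest upstream of the start is shown.

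Ctsa: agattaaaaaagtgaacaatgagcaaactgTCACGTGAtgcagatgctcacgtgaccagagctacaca
Ctsd: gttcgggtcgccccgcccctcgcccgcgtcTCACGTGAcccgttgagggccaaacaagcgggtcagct
Gla: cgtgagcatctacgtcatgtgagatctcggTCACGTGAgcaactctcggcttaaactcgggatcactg
Cln3: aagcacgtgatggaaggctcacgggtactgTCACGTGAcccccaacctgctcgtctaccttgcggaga
Mcoln1: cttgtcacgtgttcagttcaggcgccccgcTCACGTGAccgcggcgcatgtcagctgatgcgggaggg

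In GRCm38.p6 these windows lie at chr2:164833730-164833797 on the plus strand (Ctsa), chr7:142387889-142387956 on the minus strand (Ctsd), chrX:134601163-134601230 on the minus strand (Gla), chr7:126583321-126583388 on the minus strand (Cln3) and chr8:3500443-3500510 on the plus strand (Mcoln1). The first base of the motif stood 13, 99, 195, 122 and 46 bases upstream of the annotated start, in that order. The Ctsa and Cln3 starts are each 1 of the starts the annotation gives for that gene. All 5 genes had higher signals in the EiPS pool than in the B6 ES pool, as had 37 of the 41 members (90.2%). Their differences ran from 0.15 (Mcoln1, -0.35 by its other probe set) to 0.77 (Gla), with a median of 0.60. The 31 measured genes whose window holds no TCACGTGA had a median of 0.25 and ranged from -0.63 to 0.89, so the ranges overlap. For the E-box the order was the other way, with a median of 0.26 over the 14 genes that hold it and 0.38 over the 22 that do not. Genes with TCACGTGA in other lysosomal lists had medians of 0.30 (enzymes, 2 genes) and -0.30 (V-ATPase, 3 genes). The 1 such membrane protein gene measured had -0.83 and the 1 enzyme sorting gene -0.61.

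Lysosomal genes had modestly higher signals in the EiPS pool. Of the 41 genes, 37 were higher by any amount (90.2%), against 56.2% of all 10962 genes measured. The median difference was 0.27, or 1.20-fold, against 0.07 over all genes. At least 1.5-fold higher were 10 of 41 (24.4%), where the background was 15.2%. With equal array medians these were 5 of 41 (12.2%), against 11.5% of all genes, so this count depended on the scaling. At least 1.5-fold lower was only Ids, where the background was 9.31%. By the probe set used for each gene, no member reached 2-fold in either direction, where the background was 5.79% higher and 3.05% lower. Other probe sets of Lipa (2.16-fold), Laptm5 (2.72-fold) and Man2b1 (at least 4.90-fold) were more than 2-fold higher, and no member probe set was 2-fold lower. Array scaling changed the count of higher genes, which was 35 after quantile normalization, 36 after loess scaling and 31 with equal array medians, a scaling that lowers the difference of every gene by about 0.12 and put the median of the 41 genes at 0.14 and that of all genes at -0.057.

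**Figure D1:**
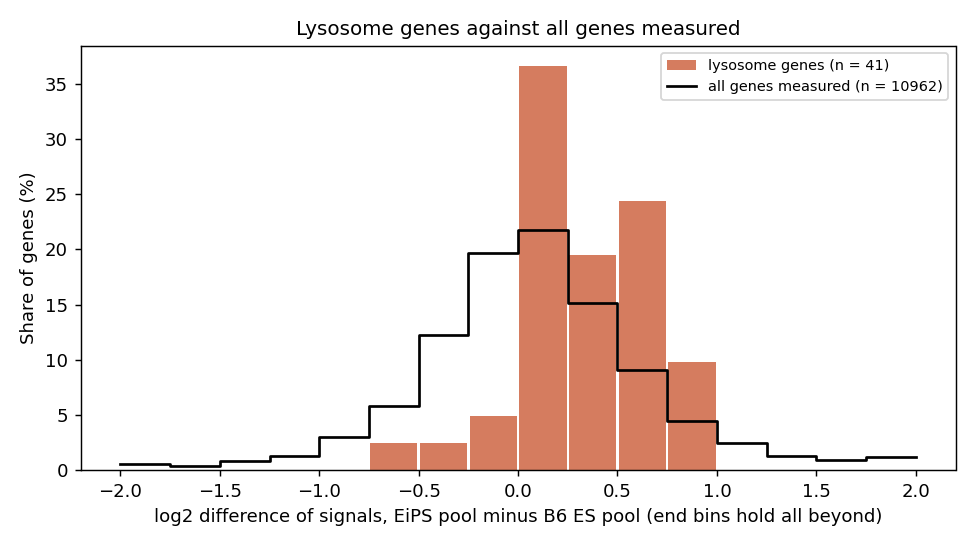
Share of genes, in percent, in bins of the log2 difference between the EiPS pool and the B6 ES pool, for the 41 lysosome genes (bars) and for all 10962 genes measured (line). Each gene is shown by its brightest probe set. The lysosome genes lie between -0.63 and 0.89, 37 of them above 0 with the deposited scaling (31 with equal array medians). None reaches 1 or -1, which is 2-fold, by that probe set.

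Lysosome genes also had the higher median within each range of signal. Among genes with a mean signal of 1000 or more, the 23 lysosome genes had a median of 0.38 and all 2180 genes one of -0.03. Between 300 and 1000 the medians were 0.25 over 10 lysosome genes and 0.03 over 3680 genes, and below 300 they were 0.29 over 8 and 0.14 over 4358. As a gauge of noise, the SD of the log2 difference between probe sets of 1 gene was 0.19 where signals were 1000 or more, 0.34 from 100 to 1000 and 0.54 below 100. Of the 41 differences, 25 were larger than the SD of their own signal range, 23 of them higher and 2 lower in the EiPS pool. The same share over all genes was not computed, so this count does not set the lysosome genes apart from other genes. This spread leaves out variation between tumours, arrays and labelling.

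The cathepsins most abundant in macrophages were all higher in the EiPS pool, by small amounts. Ctsd, the main aspartic protease of the lysosome, had a signal of 5147 in the EiPS pool and 3399 in the B6 ES pool (1.51-fold higher). Ctsb, a cysteine protease, had 6314 in the EiPS pool and 4283 in the B6 ES pool (1.47-fold). Ctsh, an aminopeptidase, had 1566 in the EiPS pool and 1130 in the B6 ES pool (1.39-fold). The 7 differences form a graded series. Ctsz, a carboxypeptidase, had 3303 in the EiPS pool and 2519 in the B6 ES pool (1.31-fold). Ctsl, a broad cysteine endopeptidase, had 5566 in the EiPS pool and 4665 in the B6 ES pool (1.19-fold). Ctss, which trims the invariant chain in cells that present antigen on MHC class II, had 3656 in the EiPS pool and 3186 in the B6 ES pool (1.15-fold). Ctsc, which activates the serine proteases of neutrophils and cytotoxic lymphocytes, had 1931 in the EiPS pool and 1841 in the B6 ES pool (1.05-fold). Of the 7, only Ctsc turned to lower under an alternative scaling, at -0.06 with equal medians.

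The other cathepsins followed the same direction. Ctsa, a serine carboxypeptidase that protects β-galactosidase and sialidase, had a signal of 1770 in the EiPS pool and 1156 in the B6 ES pool (1.53-fold higher). Ctsk, the collagen-degrading cathepsin of osteoclasts, had 624 in the EiPS pool and 427 in the B6 ES pool (1.46-fold). Ctse, an aspartic protease of stomach and other epithelia, had 505 in the EiPS pool and 434 in the B6 ES pool (1.16-fold, and 1.43-fold by its other probe set). The stomach markers Gkn1 and Gkn2 differed far more than Ctse. Gkn1 had 1773 in the EiPS pool and 148 in the B6 ES pool (12.02-fold) and Gkn2 1926 in the EiPS pool and 168 in the B6 ES pool (11.4-fold). They differed most of the 9 gut epithelial markers measured, which ranged from -0.02 to 3.59. Ctsf had 284 in the EiPS pool and 265 in the B6 ES pool (1.07-fold, and -0.02 on the log2 scale with equal medians). Lgmn, the asparaginyl endopeptidase legumain, which processes cathepsins, had 1366 in the EiPS pool and 1261 in the B6 ES pool (1.08-fold, and -0.01 on the log2 scale with equal medians).

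**Figure D2:**
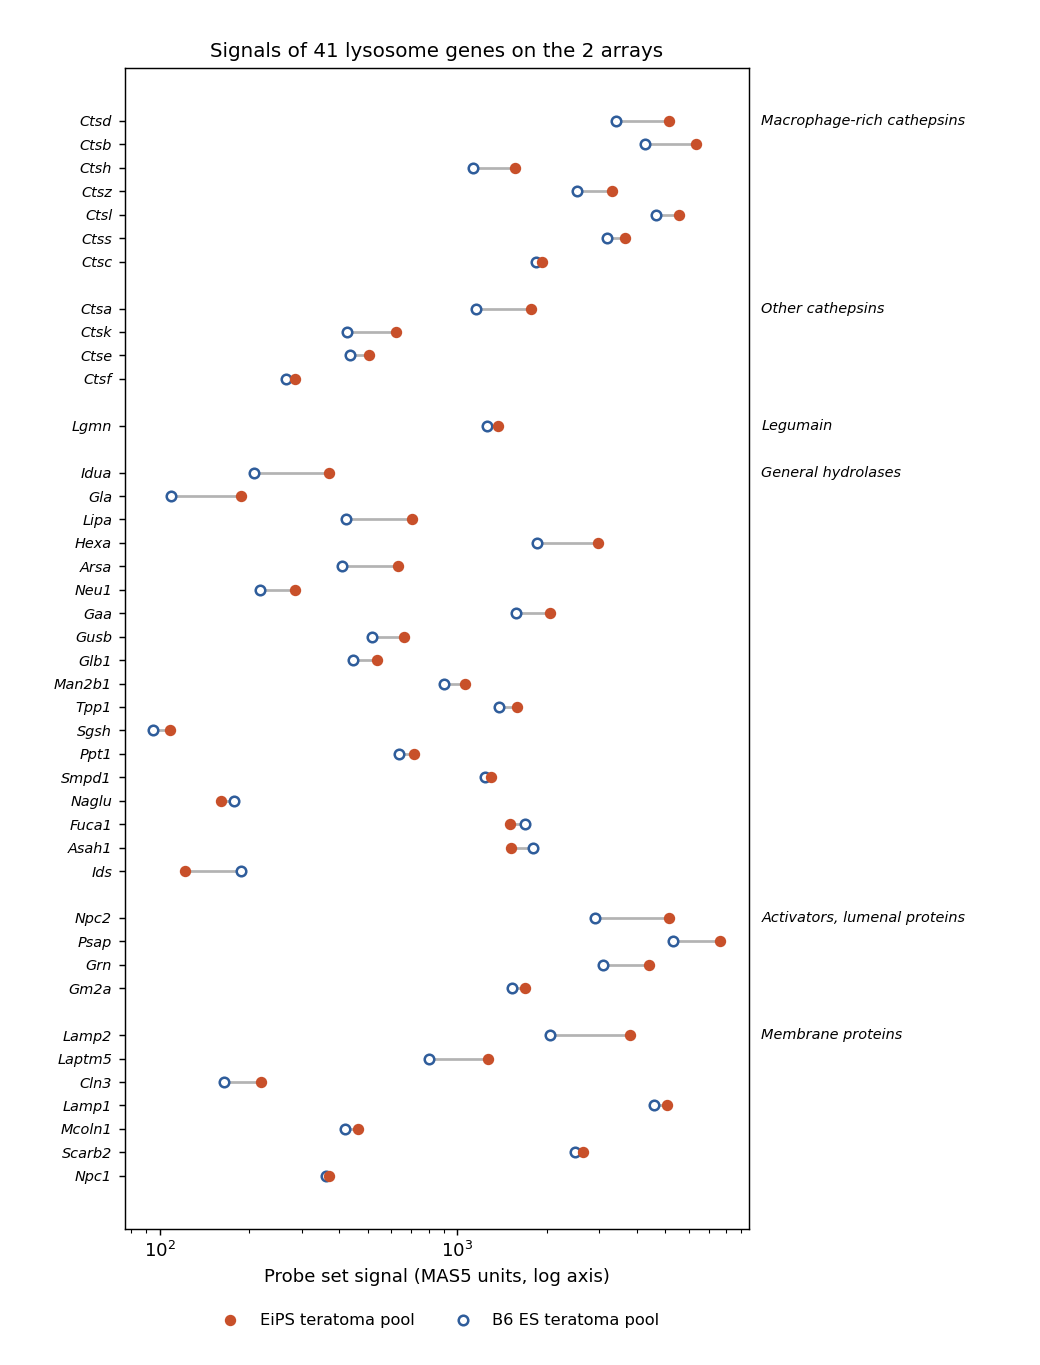
Probe set signals (MAS5 units, log axis) of the 41 lysosome genes in the EiPS teratoma pool (filled) and the B6 ES teratoma pool (open), 1 array each, ordered by difference within each group. The filled point lies right of the open one for 37 genes with the deposited scaling, and left of it for Naglu, Fuca1, Asah1 and Ids.

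General hydrolases had the widest range of differences. Of the 18 measured, 14 were higher (77.8%, against 56.2% of all genes) and 4 lower in the EiPS pool. Among the higher ones, 5 reached 1.5-fold (27.8% of the 18, against 15.2% of all genes). Idua, which cleaves iduronic acid from heparan and dermatan sulfate, had a signal of 371 in the EiPS pool and 208 in the B6 ES pool (1.79-fold). Its other probe set had 62.7 in the EiPS pool and 55.1 in the B6 ES pool (1.14-fold), so the size for Idua depends on the probe set. Gla, α-galactosidase A, had 187 in the EiPS pool and 109 in the B6 ES pool (1.71-fold). Lipa, the acid lipase that frees cholesterol from its esters, had 704 in the EiPS pool and 421 in the B6 ES pool (1.67-fold). Its other probe sets were 1.48-fold and 2.16-fold higher. These enzymes act on unlike substrates, a glycosaminoglycan, a glycosphingolipid and cholesteryl esters. Hexa, the α subunit of β-hexosaminidase, had 2972 in the EiPS pool and 1847 in the B6 ES pool (1.61-fold). Arsa, which removes sulfate from sulfatide, had 630 in the EiPS pool and 409 in the B6 ES pool (1.54-fold).

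Hydrolases between 1.1-fold and 1.4-fold higher were Neu1 (the sialidase, 1.31-fold), Gaa (acid α-glucosidase, which degrades glycogen, 1.30-fold), Gusb (β-glucuronidase, 1.28-fold), Glb1 (β-galactosidase, 1.20-fold), Man2b1 (α-mannosidase, 1.18-fold), Tpp1 (a tripeptidyl peptidase, 1.15-fold), Sgsh (heparan N-sulfatase, 1.14-fold) and Ppt1 (palmitoyl-protein thioesterase, 1.12-fold). Smpd1, acid sphingomyelinase, was 1.05-fold higher. Directions this small did not all hold under other scalings, Sgsh being -0.01 after quantile normalization and Smpd1 -0.06 with equal medians. Second probe sets of Gusb and Ppt1 were lower in the EiPS pool, at -0.27 and -0.42. Ids, iduronate sulfatase, had 121 in the EiPS pool and 187 in the B6 ES pool (1.54-fold lower). Asah1, acid ceramidase, had 1510 in the EiPS pool and 1801 in the B6 ES pool (1.19-fold lower). Fuca1, α-fucosidase, had 1498 in the EiPS pool and 1681 in the B6 ES pool (1.12-fold lower), but both its other probe sets were 1.12-fold higher. Naglu, a heparan sulfate enzyme, had 161 in the EiPS pool and 177 in the B6 ES pool (1.10-fold lower). The heparan sulfate enzymes did not share a direction by these probe sets, Idua and Sgsh being higher and Ids and Naglu lower in the EiPS pool. These directions are not settled. Sgsh (0.19) and Naglu (-0.14) differed by less than the probe set SD of their signal range (0.34). The other Ids probe set above the floor was higher in the EiPS pool (0.68).

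Set side by side, the macrophage-rich cathepsins and the general hydrolases overlapped. The 7 cathepsins had a median difference of 0.39 and ranged from 0.07 to 0.60, and the 18 hydrolases had a median of 0.25 and ranged from -0.63 to 0.84. Of the hydrolases, 5 lay above the highest of these cathepsins and 5 below the lowest. The medians differed by 0.14, and by 0.036 when each gene was averaged over its probe sets. With all 11 cathepsins in place of the 7, the difference was 0.14 because Ctsz is the median gene of both sets, so this is not a separate check. At least 1.5-fold higher were 1 of the 7 cathepsins (14.3%) and 5 of the 18 hydrolases (27.8%), where the background was 15.2%.

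**Figure D3:**
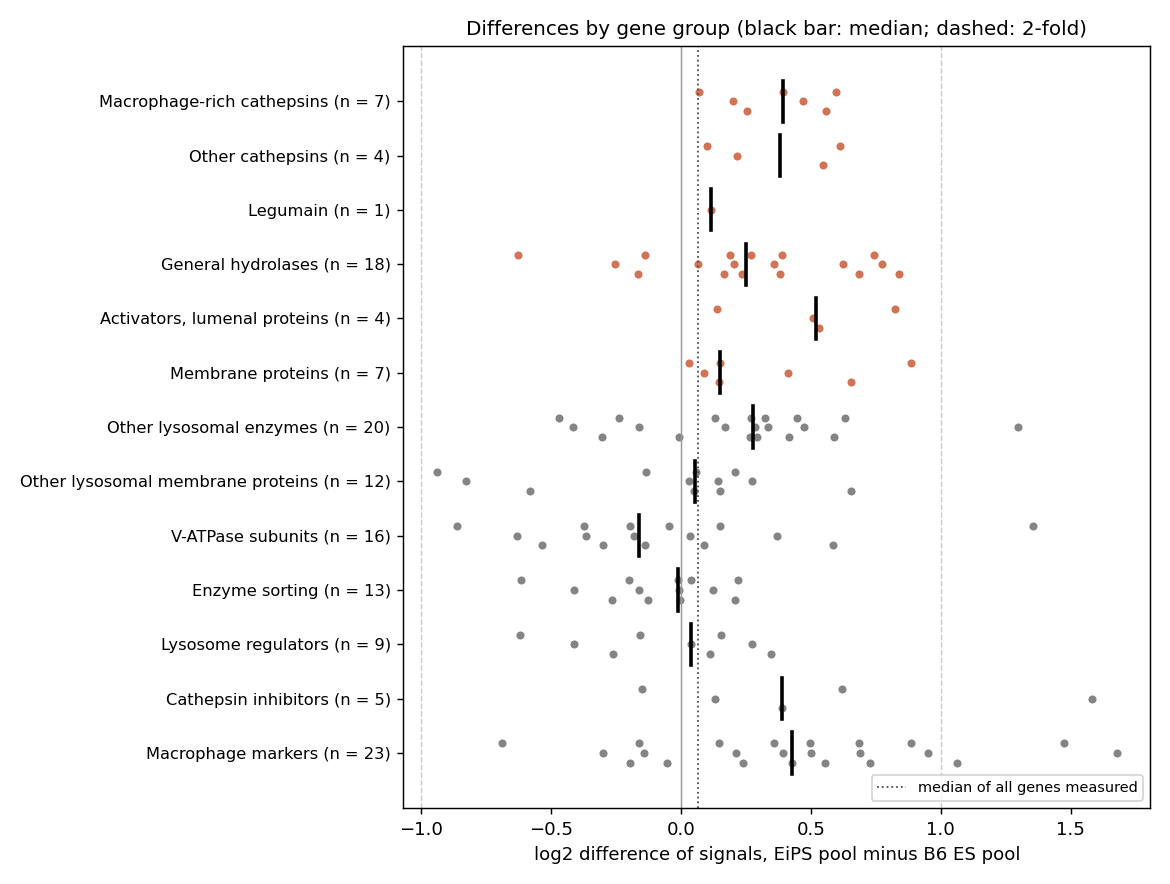
Log2 differences between the EiPS pool and the B6 ES pool for each gene of the lysosome groups (orange), other lysosomal lists and macrophage markers (grey), with the median of each list as a black bar, the median of all genes dotted and 2-fold dashed. The cathepsin and hydrolase points overlap, and most V-ATPase subunits lie left of 0; the medians of other lysosomal membrane proteins and of lysosome regulators lie near 0 and change sign under other scalings.

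Soluble activators and lumenal proteins had a median of 0.52, the members being 4. Npc2, which carries cholesterol inside the lysosome, had a signal of 5136 in the EiPS pool and 2901 in the B6 ES pool (1.77-fold higher). Psap, the precursor of the saposins that present sphingolipids to hydrolases, had 7656 in the EiPS pool and 5300.4 in the B6 ES pool (1.44-fold). Grn, progranulin, had 4405 in the EiPS pool and 3097 in the B6 ES pool (1.42-fold). The 3 genes were higher on each of their probe sets, 2 for Npc2 (0.76 and 0.82), 2 for Psap (0.53 and 0.56) and 3 for Grn (0.39 to 0.51). Gm2a, the GM2 activator that works with β-hexosaminidase, had 1684 in the EiPS pool and 1530 in the B6 ES pool (1.10-fold), and its other probe set went the other way (-0.28).

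Membrane proteins had a lower median than the soluble activators, 0.15 over 7 genes, all of them higher in the EiPS pool. Lamp2, a glycoprotein of the lysosomal membrane that is needed for fusion with autophagosomes, had a signal of 3793 in the EiPS pool and 2052 in the B6 ES pool (1.85-fold), the largest difference of the 41 genes. Its other 3 probe sets differed by 0.13, 0.22 and 0.46, so the size for Lamp2 depends on the probe set. Lamp1, its close relative, had 5067 in the EiPS pool and 4566 in the B6 ES pool (1.11-fold). Laptm5, a lysosomal membrane protein of blood cells, had 1262 in the EiPS pool and 801 in the B6 ES pool (1.58-fold), with 0.96 and 1.45 on its other probe sets. Cln3 had 219 in the EiPS pool and 165 in the B6 ES pool (1.33-fold). Mcoln1, a calcium channel of the lysosomal membrane, had 464 in the EiPS pool and 419 in the B6 ES pool (1.11-fold), with -0.35 on its other probe set. Scarb2, the receptor that brings glucocerebrosidase to the lysosome, had 2639 in the EiPS pool and 2482 in the B6 ES pool (1.06-fold, and -0.04 on the log2 scale with equal medians). Npc1, the membrane partner of Npc2 in cholesterol export, had 369 in the EiPS pool and 362 in the B6 ES pool (1.02-fold), and was below 0 on the log2 scale after quantile normalization, equal medians and loess scaling. The partners Npc2 and Npc1 thus differed by 0.82 and 0.03 between the pools.

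Where a gene had several probe sets, they mostly had the same direction. Of 71 member probe sets that exceeded the floor in both pools, 63 were higher and 8 lower in the EiPS pool. That count includes genes with only 1 such probe set, which cannot show agreement. Its share over all probe sets was not computed, and of all genes measured 56.2% were higher. Of 21 genes with more than 1 such probe set, 15 had all of them in the same direction, and Fuca1, Gm2a, Gusb, Ids, Mcoln1 and Ppt1 had them in both. Ids is the least settled: its brightest probe set differed by -0.63 and the other one above the floor by 0.68, with signals of 48.4 in the EiPS pool and 30.2 in the B6 ES pool. A second probe set of Man2b1 had 127 in the EiPS pool and 10.3, a value under the floor, in the B6 ES pool. It was at least 4.90-fold higher, where its brightest gave 1.18-fold.

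**Figure D4:**
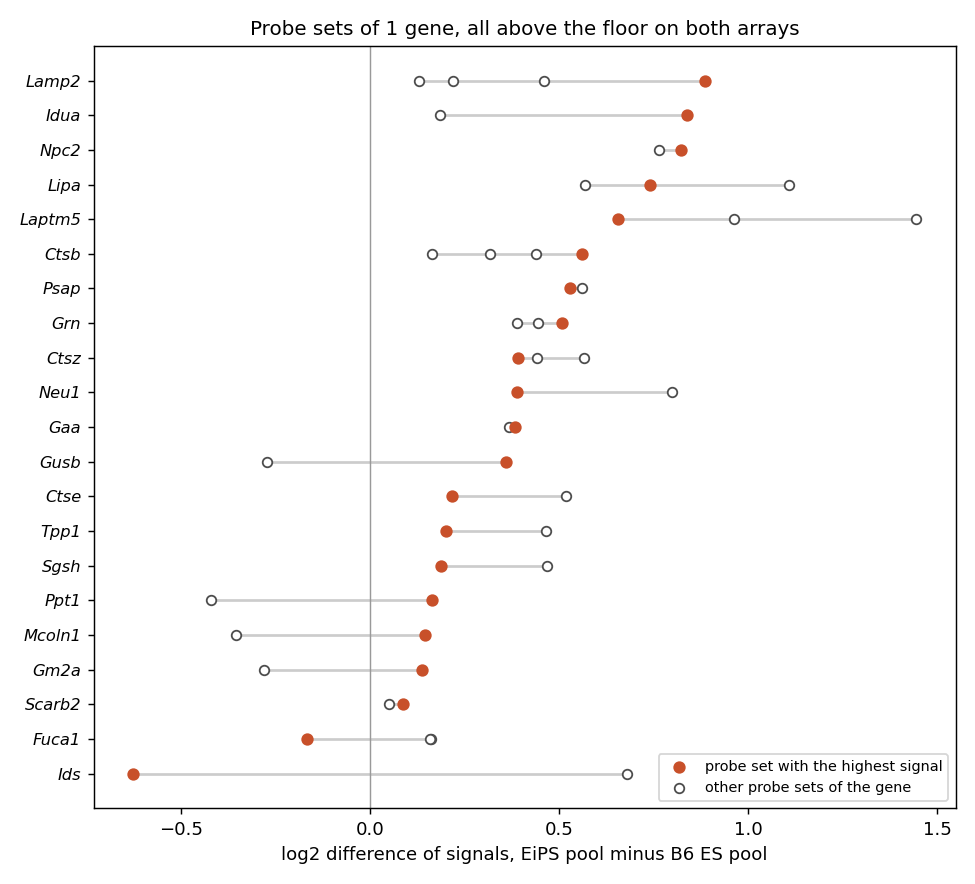
Log2 differences between the EiPS pool and the B6 ES pool for each probe set that exceeded the floor in both pools, for the 21 lysosome genes with more than 1. The filled point is the probe set with the highest signal, used elsewhere; the probe sets of Npc2, Psap, Gaa and Scarb2 lie close together, and those of Lamp2, Laptm5 and Ids lie far apart.

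Other genes of the pathway were read from fixed lists. Of 20 other lysosomal enzymes and lumenal proteins, 14 were higher (70%, against 56.2% of all genes) and 6 lower in the EiPS pool. The median was 0.28, and only 1 gene was 2-fold higher or more, where the background was 5.79%. That gene is Acp5, the tartrate-resistant acid phosphatase of osteoclasts and some macrophages, with 290 in the EiPS pool and 118 in the B6 ES pool (2.46-fold). Next were Creg1 (1.55-fold) and Man2b2, a further α-mannosidase (1.503-fold), and Arsg, a sulfatase, was 1.39-fold lower. Second probe sets of Creg1 and Arsg went the other way, Creg1's being 1.15-fold lower and Arsg's 1.29-fold higher in the EiPS pool. Other lysosomal membrane proteins had a median of 0.06 over 12 genes, which was below 0 after quantile normalization (-0.076), equal medians (-0.070) and loess scaling (-0.025). In that list Litaf was 1.57-fold higher, and Abcb9, a peptide transporter, and Clcn7, the chloride and proton exchanger, were 1.92-fold and 1.77-fold lower in the EiPS pool. A second Clcn7 probe set went the other way, with 78.3 in the EiPS pool and a signal under the floor in the B6 ES pool (at least 3.03-fold higher).

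The V-ATPase, the pump that acidifies the lysosome, had a median below 0, unlike the enzymes. Of 16 subunits and accessory proteins, 10 were lower in the EiPS pool and 6 higher (37.5%, against 56.2% of all genes). The median was -0.16 and stayed below 0 under every scaling run. Over all genes with a mean signal of 1000 or more the median was -0.03. Atp6v1h had 910 in the EiPS pool and 1653 in the B6 ES pool (1.82-fold lower), and Atp6v1a, the catalytic subunit, 1342 in the EiPS pool and 2079 in the B6 ES pool (1.55-fold lower). Tcirg1, the a3 subunit of osteoclasts and macrophages, differed most among the 6 higher ones, with 456 in the EiPS pool and 178 in the B6 ES pool (2.56-fold higher). V-ATPase promoters also hold the CLEAR core, in 3 of the 12 in the table, and these 3 subunits had a median of -0.30. Enzyme sorting genes had a median of -0.01 over 13 genes, which was 0.10 with probe sets averaged, and Igf2r, the large mannose 6-phosphate receptor, was 1.53-fold lower. The lysosome regulators had a median of 0.04 over 9 genes (-0.088 with equal medians), and Tfeb itself had 111 in the EiPS pool and 171 in the B6 ES pool (1.54-fold lower). Among 5 measured cathepsin inhibitors with a median of 0.39, Cst3, the secreted cystatin C, was 1.54-fold higher and Stfa3, a stefin of myeloid cells, at least 2.99-fold higher. That median was 0.13 with a floor of 100 and 0.16 after quantile normalization.

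Markers of other cell types differed between the pools beside these genes. Of 23 macrophage markers measured, 17 were higher and 6 lower in the EiPS pool, and 8 were 1.5-fold higher or more. The median was 0.43, with a summed signal of 27489 in the EiPS pool and 18901 in the B6 ES pool. Cd68, a lysosomal protein of macrophages, was 2.09-fold, the lysozyme Lyz2 1.93-fold, Msr1 2.78-fold (1.22-fold lower by another of its probe sets) and Hmox1 3.20-fold higher, whereas Csf1r (1.11-fold lower), Adgre1 (1.04-fold lower) and Cx3cr1 (1.61-fold lower) were not, and Cd163 was under the floor on both arrays (Csf1r, Adgre1 and Cd163, and the osteoclast markers that follow, were named after their values were seen). Of 5 osteoclast markers measured, 4 were higher (80%, against 56.2% of all genes) and 1 lower in the EiPS pool. Tnfrsf11a, the RANK receptor, was 1.82-fold higher (a second probe set was near the floor in both pools and not higher) and Mmp9 1.74-fold higher, Car2 was 2.002-fold lower, Nfatc1 and Calcr were 1.105-fold and 1.04-fold higher, and Ocstamp and Itgb3 were under the floor on both arrays. Neutrophil, gut epithelial, keratinocyte, fibroblast and adipocyte markers had higher medians (0.71, 1.68, 0.35, 0.26 and 2.50, the last over 5 genes of which only 2 were above the floor in both pools), skeletal muscle and neuronal markers lower ones (-1.88 and -1.01), and osteoclast and dendritic cell markers had 0.14 and -0.07, both of which change sign under other settings. The adipocyte, neutrophil, fibroblast, keratinocyte and skeletal muscle medians moved by more than 1.5 times under other settings, down to 1.01, 0.46, 0.13, 0.22 and -1.09. The adipocyte and neutrophil medians also rose, up to 3.94 and 1.44. The epithelial, muscle and neuronal markers of a mixed tumour were above the floor in both pools. The part of any of these cell types in the lysosomal differences was not tested.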

How the data were processed

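The authors deposited 1 linear intensity value per probe set and array. Per the submitters' processing notes, these came from MAS5 in Affymetrix Expression Console, and the sources used here give no version or setting. The 2% trimmed mean was 500.2 on both arrays, which had thus been scaled to 1 level before deposit, and no scaling was added for the values reported. Because MAS5 takes off mismatch signal, low values are noisy, and scaled signals cannot show a difference in total RNA per cell. The median signal over 22690 probe sets was 196 on the EiPS array and 179 on the B6 ES array. The precision is limited by 1 array per group, and no p-value was computed.

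Probe sets were named through the platform annotation, updated by Entrez identifier (20351 of 20380 with 1 symbol; 691 had several symbols and were left out) with a RefSeq gene table of GRCm38.p6. The floor, 25.8, is the 90th percentile of signals from 71 olfactory, vomeronasal and taste receptor probe sets. A gene under it on 1 array was set to it there and given as "at least", and the 1431 genes under it on both were not compared. Of the 41 genes, 15 were read from probe sets with the letter s, x or a in their suffix, which the design marks as not specific to 1 transcript. Such probe sets are called shared below. All members could be named, and from each other list up to 4 genes with the largest difference and the largest in the opposite direction. The members, lists and tests were chosen with earlier results of these data known. Alternatives were other floors, log2(signal + 64), 3 scalings and 2 ways of choosing probe sets. Python 3.11.15, pandas 2.3.3 and statsmodels 0.14.6 were used, and the steps were tested on simulated data.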

Additional observations from a re-analysis of the deposited data

How the results depend on the processing

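The medians of the 41 genes, of the macrophage-rich cathepsins and of the general hydrolases stayed above 0 under all 10 alternatives. The alternatives that change only the floor left each of these medians at its reported value. Nearly all member signals lie above every floor tried, so those settings are no check of the medians. With equal medians these medians were 0.14, 0.27 and 0.13, 5 genes (12.2%, against 11.5% of all genes) were at least 1.5-fold higher, and the median of all genes shifted by -0.12, so the list stood 0.20 above it, as with the deposited scaling. With probe sets averaged, the median of the lysosome genes was 0.37 over 40 genes, as Ids was then under the floor. In that setting 0 genes were at least 1.5-fold lower and 2 were at least 2-fold higher, as were 698 of all 10710 genes. The cathepsin and hydrolase medians then differed by 0.036. Without the probe sets called shared, 31 genes were left, and Lamp2 was at 0.13. Of the 31, 6 were 1.5-fold higher or more (19.4%, against 15.9% of all genes) and 1 (Man2b1) was past 2-fold. With log2(signal + 64), 0 genes were at least 1.5-fold lower. Of 399 single-gene values under an alternative, 13 had the other sign, from 11 genes, none of them at least 1.5-fold in the values reported. The 399 include the floor settings, which changed only the value of Sgsh and so add no check of direction for the other genes. Among other lists, the lysosomal membrane median was -0.076 after quantile normalization, -0.070 with equal medians and -0.025 after loess scaling. The regulators were at -0.030 when the 98th percentile of the silent receptors set the floor and at -0.088 with equal medians, enzyme sorting was at 0.10 with probe sets averaged, and osteoclast markers were at -0.040 after quantile normalization. Dendritic cell markers were at 0.13 when the 75th percentile set it, 0.65 with none, 0.052 with log2(signal + 64), 0.33 with probe sets averaged and 0.0094 without shared probe sets. Cathepsin inhibitors were at 0.13 with a floor of 100, 0.16 after quantile normalization, 0.20 with log2(signal + 64), 0.22 after loess scaling and 0.25 without shared probe sets. Adipocyte markers were at 1.01 without shared probe sets, 1.28 with a floor of 100, 1.62 with log2(signal + 64) and 3.94 with no floor. Neutrophil markers were at 0.46 with log2(signal + 64), 1.21 when the 98th percentile set the floor and 1.44 with a floor of 100. With equal medians, fibroblast markers were at 0.13, keratinocyte markers at 0.22, other lysosomal enzymes at 0.15, member membrane proteins at 0.025 and the V-ATPase at -0.29, and the V-ATPase was at -0.38 without shared probe sets. Skeletal muscle markers were at -1.09 with probe sets averaged, and fibroblast markers at 0.15 after quantile normalization. The causes were not tested. The alternatives for cell type markers and the smaller member groups were added after the data were seen. No paired analysis was possible because each group has 1 array.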
